A study of Homo sapiens with 18 samples.

Results

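Gluconeogenesis, the pathway that makes glucose from smaller molecules, was described through 10 genes: the enzymes PCK1, PCK2, PC, FBP1, FBP2 and G6PC3, the transporter SLC37A4, and the regulators FOXO1, CREB1 and PPARGC1A. They were taken by symbol from the 47021 genes of a poly(A) RNA count table, and each symbol was found once. Of the 10 genes, 7 passed the filter on low counts and were tested, and PCK1, FBP2 and PPARGC1A did not pass it.

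Gluconeogenesis turns lactate, amino acids and glycerol into glucose and runs to completion mainly in liver and kidney. It shares its reversible reactions with glycolysis and goes around the irreversible ones with its own enzymes: pyruvate carboxylase, phosphoenolpyruvate carboxykinase, fructose-1,6-bisphosphatase and glucose-6-phosphatase. ZNF692, a zinc-finger protein, was first named AREBP, a factor described as binding the promoter of PCK1 and as a substrate of the energy-sensing kinase AMPK. The comparison asks what the transcripts of this pathway did in cells whose ZNF692 gene was targeted.

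Poly(A) RNA came from DLD1 cells, a long-established line from a human colorectal adenocarcinoma, which carried a control CRISPR guide (sgC, labelled wild type) or 1 of 2 guides against ZNF692 (sgZ1 and sgZ3, both labelled knockout). Cells of all groups had been infected with lentivirus and selected with puromycin at 10 µg/ml from 48 h on, and were grown in 5% serum. Each guide had 3 poly(A) libraries with 16044224 to 24535642 counts each, and levels are given as CPM, counts scaled to a common library size. Another 9 ribosomal RNA libraries of the same series of 18 were not used here. The labels do not say whether the cells of a guide are a pool or 1 clone, nor that replicates are separate cultures, so p-values cover only how these samples vary, and that variation may be technical. ZNF692 mRNA itself was not lower under either guide: it stood at 7.01, 6.31 and 6.18 CPM in sgC, at 9.63, 9.81 and 11.5 in sgZ1 and at 7.91, 8.07 and 6.29 in sgZ3. It was higher with sgZ1 (log2 fold change 0.66, edgeR adjusted p = 0.0048) and did not pass with sgZ3 (0.19, adjusted p = 0.32). An insertion or deletion made by a guide can leave mRNA in place. The labels are thus not checked by it, and directions below are between libraries as labelled.

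Some libraries stood apart. In sgZ1, 87 genes were above 2 CPM in all 3 libraries and below 0.5 CPM in the other 6, while 0 genes met that rule for sgC or sgZ3. The mesenchymal gene VIM (vimentin) reached 22.9 CPM in the second sgZ1 library and 21.1 in the third sgZ3 library but no more than 1.22 in any of the rest, and SPARC, of the matrix, reached 64.2 and 66.7 against 3.72 to 5.91. The summed level of 8 fibroblast markers was 103 and 107 CPM in these libraries against 6.09 to 8.08 elsewhere. Colorectal epithelium markers, 7 genes, summed to 7434 to 8107 CPM in sgC, 7169 to 7960 in sgZ1 and 8975 to 9622 in sgZ3. Hepatocyte and kidney tubule markers, the cells in which the whole pathway is known to run, summed to 17.6 to 19.3 CPM in sgC, 19.1 to 26.1 in sgZ1 and 17.04 to 17.995 in sgZ3 over 8 genes. Among them CPS1, a urea-cycle gene, was at 6.91 to 10.5 CPM in sgZ1 and at most at 0.214 elsewhere, while SERPINA1 was lower in sgZ1 (log2 fold change -0.48, edgeR adjusted p = 0.018). Leukocyte markers summed to at most 0.195 CPM (CD68 at 0 throughout) and endothelial markers to 1.59 to 3.66. The part of these differences in the results below was not tested, and values without sgZ1 replicate 2 and sgZ3 replicate 3 are given for the tested members. In bulk RNA, fewer cells with a transcript and less of it per cell cannot be told apart.

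Promoter sequences are shown for PCK2, the member with the widest change, and for PC, the member whose promoter held the most copies of the motifs searched. They are the 250 bases before a RefSeq transcription start (GRCh38.p14), 5′ to 3′ on the gene's strand. RefSeq windows were found for 9 of the 10 genes, and PCK1 was not among them. The region of PCK2 is chr14:24094061-24094310 (plus strand), and that of PC is chr11:66958384-66958633 (minus strand), the only 1 of its 3 windows with a match. Capitals mark TGACG, part of the CREB site.
PCK2: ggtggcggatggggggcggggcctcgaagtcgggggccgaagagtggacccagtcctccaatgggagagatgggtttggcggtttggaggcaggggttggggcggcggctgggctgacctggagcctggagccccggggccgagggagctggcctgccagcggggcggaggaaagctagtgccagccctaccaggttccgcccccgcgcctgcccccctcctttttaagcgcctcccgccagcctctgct
PC: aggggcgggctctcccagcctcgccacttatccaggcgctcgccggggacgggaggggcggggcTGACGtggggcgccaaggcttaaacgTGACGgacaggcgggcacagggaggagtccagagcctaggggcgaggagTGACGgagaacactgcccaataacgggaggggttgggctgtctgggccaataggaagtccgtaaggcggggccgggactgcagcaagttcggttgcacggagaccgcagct

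Windows of 300 bases, 250 before to 50 after the start, were searched on both strands for 4 motifs: TGACGTCA (the full CREB site, in 1.85% of 35116 RefSeq windows), TGACG (its shorter form, whose letters lie within the full site, in 24.6%), GTAAACA (a FOXO-type element, in 3.42%) and TGATGNAA (an amino-acid response element of the ATF4 type, in 3.62%). TGACG was found at -186, -160 and -111 from the start of PC and at -119 in 1 of the windows of PPARGC1A. That PPARGC1A window, chr4:24472856-24473155, lies outside the annotated gene (23755041 to 23904089), and the window inside the gene held no match. The windows of the other 7 genes, PCK2 among them, held none of the 4 motifs. A match describes letters and not a bound site.

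Levels of different genes were compared as CPM per kilobase of annotated exon. In sgC the order was PCK2 at 60.5 ± 12.5 (SD, n = 3), FBP1 at 22.6 ± 0.807, G6PC3 at 16.3 ± 0.981, SLC37A4 at 10.7 ± 0.139, CREB1 at 9.46 ± 0.158, PC at 6.02 ± 0.369 and FOXO1 at 1.16 ± 0.0985. Each step in that order was wider than the SDs of its neighbours. The SDs do not cover the choice of exon length, which joins all annotated exons of a gene. That length was 1739 bases for FBP1, 4551 for G6PC3 and 6186 for SLC37A4. In CPM alone FBP1 (39.4 in sgC) was below G6PC3 (74.3) and SLC37A4 (66.4), so the order depends on the annotation. FBP2, PCK1 and PPARGC1A came last at 0.0743, 0.0192 and 0.0088, within their own spread of each other. In sgZ1 the order was the same, with PCK2 at 27.1 ± 7.10 and FBP1 at 18.9 ± 2.86. Among the 7 tested genes, 3 pairs of neighbours differed by less than the sum of their SDs. They were PCK2 and FBP1, FBP1 and G6PC3 (16.3 ± 1.65), and CREB1 (7.86 ± 1.15) and PC (6.21 ± 1.003). In sgZ3 FBP1 (27.5) and G6PC3 (23.5) were above PCK2 (21.0), and these steps too were less than the sum of the SDs. PCK2 led the control cells by a wide margin. On this scale it was not separated from FBP1 under either ZNF692 guide or, in sgZ3, from G6PC3. In sgZ3 it stayed above SLC37A4 (14.3 ± 1.51) on this scale, while in CPM alone PCK2 was at 87.9 and SLC37A4 at 88.3.

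**Figure D1:**
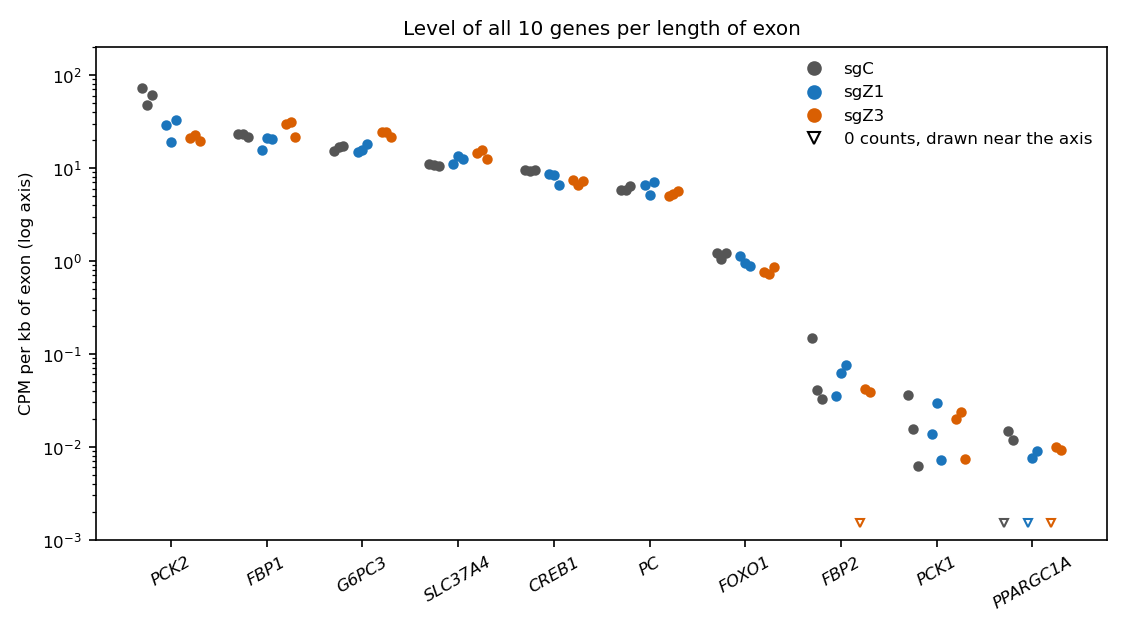
Level of each of the 10 genes in CPM per kilobase of exon (log axis), by guide, with 1 point per library and open triangles for libraries with 0 counts. PCK2 leads in sgC, and PCK1, FBP2 and PPARGC1A lie far below the 7 tested genes under every guide.

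Over both guides against sgC, 5 of the 7 tested members passed the test, beside 33.2% of all 14732 genes tested: PCK2, CREB1 and FOXO1 fell, and G6PC3 and SLC37A4 rose (edgeR's quasi-likelihood test, Benjamini-Hochberg adjusted p under 0.05). With sgZ3 alone the same 5 passed, beside 36.3% of all genes (19.2% higher, 17.1% lower). With sgZ1 alone PCK2 passed, beside 25.8% (15.5% higher, 10.3% lower). All libraries of the guides lay on 1 side of all sgC libraries for 2 of 7 members over both guides (23.4% of all genes), 3 with sgZ1 (44.3%) and 6 with sgZ3 (52.4%). The median log2 fold change of the 7 members was -0.07 over both guides, -0.23 with sgZ1 and -0.19 with sgZ3, and the medians of all genes were 0.0078, 0.011 and -0.018. Both guides' comparisons use the same sgC libraries. Without sgZ1 replicate 2 and sgZ3 replicate 3 the numbers of members called were 5 over both guides, 3 with sgZ1 and 7 with sgZ3, beside 49.6%, 39.5% and 55.3% of all genes in that setting.

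PCK2 encodes the mitochondrial phosphoenolpyruvate carboxykinase, which makes phosphoenolpyruvate from oxaloacetate. The gene lies on chromosome 14 from 24094053 to 24110598 (GRCh38, plus strand, protein coding). Its level was 306, 201 and 253 CPM in sgC, 122, 80.4 and 138 in sgZ1 and 88.2, 93.9 and 81.7 in sgZ3. Every library of either ZNF692 guide was below every sgC library, a pattern that 11.5% of all tested genes share in that direction. The sgC libraries were themselves uneven, and the lowest of them was still well above the highest sgZ1 library.

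PCK2 fell 2.54-fold over both guides (log2 fold change -1.34, SE 0.155, 95% interval -1.68 to -1.01, adjusted p = 0.00022). The fall was 2.24-fold with sgZ1 (-1.16, SE 0.187, adjusted p = 0.00083) and 2.88-fold with sgZ3 (-1.53, SE 0.190, adjusted p = 0.0003). PCK2 passed in all 17 other settings over both guides, and in all 18 for each guide, among them each fit with 1 library left out. Without sgZ1 replicate 2 and sgZ3 replicate 3 the changes were -1.25 over both guides, -0.98 with sgZ1 and -1.52 with sgZ3. The difference between the guides, sgZ3 minus sgZ1, was -0.37 (interval -0.77 to 0.04, adjusted p = 0.16) and did not pass. It was -0.59 (adjusted p = 0.0087) without sgZ1 replicate 2, the lowest sgZ1 library, and -0.55 (0.0043) without both libraries that carried VIM. NRL, on the other strand within the PCK2 locus, shares 0 exon bases with it and had 18 to 39 counts per library.

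**Figure D2:**
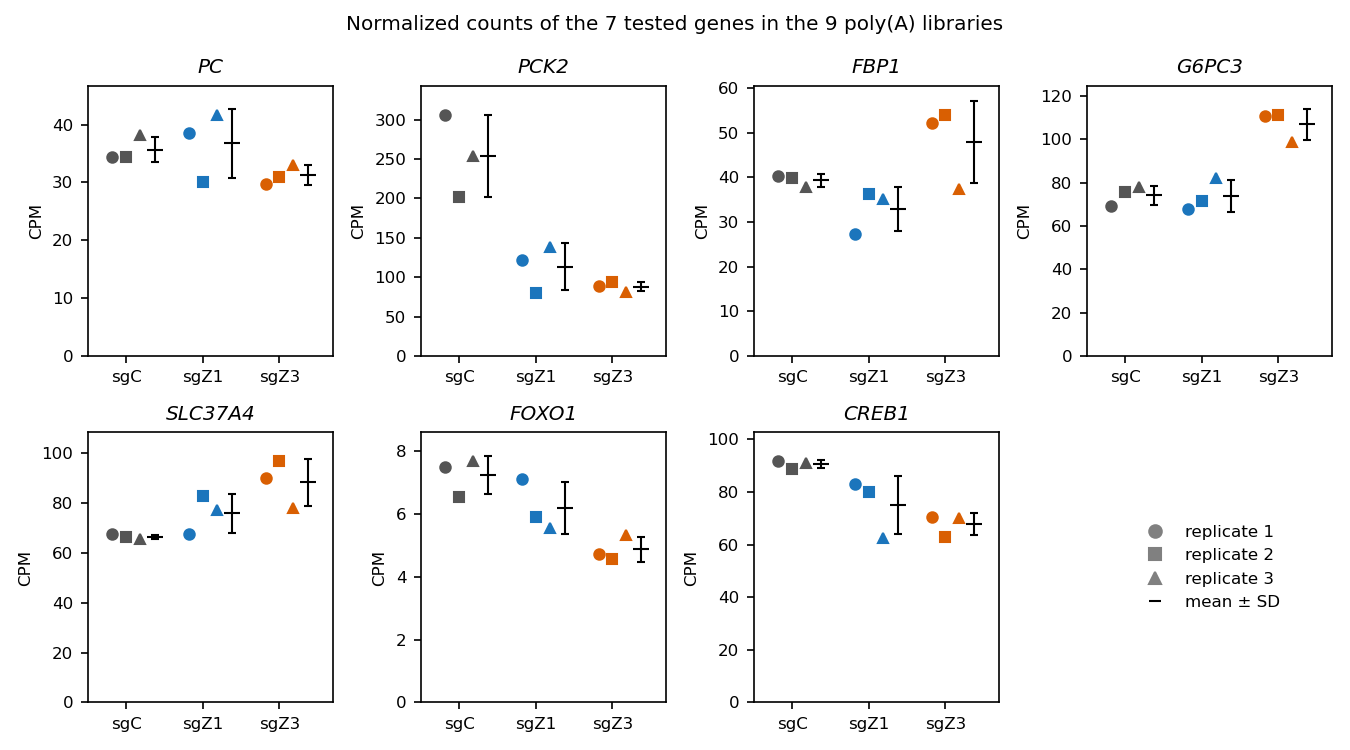
CPM of the 7 tested genes in each library (linear axes from 0, 1 panel per gene), with mean ± SD (n = 3) beside each group and the marker shape for the replicate. All sgZ1 and sgZ3 points of PCK2 and CREB1 lie below the sgC points, and for G6PC3 and SLC37A4 the sgZ3 points alone lie wholly above the sgC points.

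PCK1, the cytosolic carboxykinase and the gene whose promoter AREBP was named for, was close to absent. It lies on chromosome 20 from 57561080 to 57568112 (plus strand) and had 5, 2 and 1 counts in the sgC libraries, 2, 5 and 1 in sgZ1 and 2, 3 and 1 in sgZ3. The groups overlapped fully, at means of 0.131, 0.116 and 0.116 CPM. An edgeR fit with no low-count filter gave a log2 fold change over both guides of -0.13 with an SE of 0.72 (95% interval -1.55 to 1.29, adjusted p = 0.99996). The interval is wide at these counts, so the fit cannot say whether PCK1 changed within it. No detection limit was computed.

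PC, pyruvate carboxylase, makes the oxaloacetate that the carboxykinases use. It lies on chromosome 11 from 66848233 to 66958376 (minus strand). Its level was 34.5, 34.3 and 38.2 CPM in sgC, 38.5, 30.2 and 41.7 in sgZ1, and 29.8, 30.9 and 33.1 in sgZ3. The sgZ1 libraries spanned the sgC range, and the sgZ3 libraries lay just below it, as 26.6% of all genes did. PC did not pass: its log2 fold change was 0.042 with sgZ1 (interval -0.22 to 0.30, edgeR adjusted p = 0.83) and -0.19 with sgZ3 (-0.46 to 0.073, adjusted p = 0.23). Without the libraries that carried VIM the sgZ3 value was -0.28 (adjusted p = 0.013). LRFN4 on the other strand shares 621 exon bases with PC and rose (log2 fold change 0.32 with sgZ1 and 0.55 with sgZ3). The strand setting of the counting is not given in the sources used here, so reads of the shared bases may be counted for either gene or for neither.

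FBP1, fructose-1,6-bisphosphatase of liver and epithelia, removes a phosphate at the step that phosphofructokinase runs the other way. It lies on chromosome 9 from 94603133 to 94640249 (minus strand). Its level was 40.4, 39.9 and 37.8 CPM in sgC, 27.2, 36.3 and 35.2 in sgZ1, and 52.3, 54.0 and 37.4 in sgZ3. The sgZ1 libraries were all below sgC, as 21% of all genes were, and 2 of 3 sgZ3 libraries were above it. Neither difference from sgC passed (-0.26 with sgZ1, adjusted p = 0.22; 0.28 with sgZ3, adjusted p = 0.15), and the mean of both guides, 0.012, averages opposite signs. The level of the third sgZ3 library, the one that carried VIM, was close to sgC.

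Between the guides FBP1 did differ, by a log2 difference of 0.54 for sgZ3 against sgZ1 (SE 0.147, interval 0.22 to 0.86, edgeR adjusted p = 0.017). That call was lost without sgZ1 replicate 1 (adjusted p = 0.085), sgZ3 replicate 1 (0.068) or sgZ3 replicate 2 (0.083). Without the libraries that carried VIM, each guide also passed against sgC, with -0.35 for sgZ1 (adjusted p = 0.0066) and 0.39 for sgZ3 (0.0013), and the difference between guides was 0.73. Leaving out sgZ3 replicate 3 alone gave 0.43 for sgZ3 against sgC (0.011). The muscle-type paralog FBP2, next to FBP1 on chromosome 9 from 94558720 to 94593793, had 0 to 4 counts per library. PCAT7, an antisense gene with 22 to 53 counts per library, shares 283 exon bases with FBP1 and 212 with FBP2.

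The last step of the pathway takes place in the endoplasmic reticulum. SLC37A4 carries glucose-6-phosphate into it, and G6PC3, the widely expressed glucose-6-phosphatase, splits off the phosphate. G6PC3 (chromosome 17, 44070735 to 44076344, plus strand) stood at 69.3, 75.6 and 77.9 CPM in sgC, 68.0, 71.6 and 82.4 in sgZ1, and 110.6, 111.3 and 98.8 in sgZ3. All sgZ3 libraries were above all others, and sgZ1 overlapped sgC throughout. Against sgC alone, 25.8% of all genes were higher in sgZ3 without overlap. G6PC3 rose 1.44-fold with sgZ3 (log2 fold change 0.53, SE 0.101, adjusted p = 0.0027) and passed in all 18 other settings. With sgZ1 the change was -0.0053 (interval -0.22 to 0.21, adjusted p = 0.98), and the difference between guides was 0.53 (interval 0.31 to 0.75, adjusted p = 0.0022). Leaving out the libraries that carried VIM gave 0.53 with sgZ3 and 0.0053 with sgZ1. The value over both guides, 0.26 (adjusted p = 0.04), averages these values, and was 0.27 without those libraries. It lost its call with upper-quartile scaling (0.079) and library totals (0.16), without sgC replicate 1 (0.19), 2 (0.099) or 3 (0.088), and without sgZ1 replicate 3 (0.057) or sgZ3 replicate 1 (0.082) or 2 (0.085).

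SLC37A4 (chromosome 11, 119024114 to 119030906, minus strand) stood at 67.4, 66.2 and 65.7 CPM in sgC, 67.4, 83.0 and 77.0 in sgZ1, and 89.9, 96.7 and 78.2 in sgZ3. All sgZ3 libraries were above sgC, as 25.8% of all genes were, and sgZ1 touched the sgC range at its lowest library. SLC37A4 rose with sgZ3 (log2 fold change 0.41, SE 0.107, adjusted p = 0.012), a call lost with library totals (0.063) and without sgC replicate 3 (0.05) or sgZ3 replicate 2 (0.064). With sgZ1 it did not pass (0.19, interval -0.04 to 0.42, adjusted p = 0.21), and the guides did not differ by the test (0.22, adjusted p = 0.14). Over both guides it was 0.30 (adjusted p = 0.028) and passed in 10 of 17 other settings. It was lost with upper-quartile scaling (0.052) and library totals (0.096), without sgC replicate 1 (0.099), 2 (0.091) or 3 (0.11), and without sgZ3 replicate 1 (0.057) or 2 (0.067). TRAPPC4, a vesicle-tethering gene on the other strand, shares 544 exon bases with SLC37A4 and also rose with sgZ3 (0.68, adjusted p = 0.0036). Reads of the shared bases may be counted for either gene or for neither. Without the libraries that carried VIM the SLC37A4 change was 0.28 over both guides, 0.11 with sgZ1 and 0.44 with sgZ3.

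Among the regulators, CREB1 encodes the cyclic-AMP responsive factor that activates gluconeogenic genes in fasting liver. It lies on chromosome 2 from 207529737 to 207603431 (plus strand). Its level was 91.6, 88.8 and 91.2 CPM in sgC, 83.0, 80.1 and 62.6 in sgZ1, and 70.5, 62.8 and 70.1 in sgZ3. Every library of a ZNF692 guide was below every sgC library, as for 11.5% of all genes, and sgC itself was tight. CREB1 fell by 0.34 on the log2 scale over both guides (SE 0.095, adjusted p = 0.018) and by 0.42 with sgZ3 (SE 0.111, adjusted p = 0.013), and by 0.41 and 0.49 without the libraries that carried VIM. With sgZ1 it was -0.27 (interval -0.51 to -0.03, adjusted p = 0.097), which did not pass, and -0.32 (0.013) without the libraries that carried VIM. The call over both guides was lost without sgC replicate 1 (0.079) or 3 (0.071), and the sgZ3 call without sgC replicate 1 (0.053) or sgZ3 replicate 2 (0.067).

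FOXO1, the forkhead factor that insulin signalling keeps out of the nucleus, was at a low level. It lies on chromosome 13 from 40469953 to 40666597 (minus strand) and stood at 7.49, 6.53 and 7.67 CPM in sgC, 7.12, 5.89 and 5.56 in sgZ1, and 4.73, 4.55 and 5.32 in sgZ3. All sgZ3 libraries were below all others, while sgZ1 overlapped sgC. Against sgC alone, 26.6% of all genes were lower in sgZ3 without overlap. FOXO1 fell by 0.57 on the log2 scale with sgZ3 (SE 0.149, adjusted p = 0.012), a call lost without sgC replicate 1 (0.051) or 3 (0.055) or sgZ3 replicate 2 (0.055). With sgZ1 it was -0.23 (interval -0.54 to 0.09, adjusted p = 0.28), and the guides did not differ by the test (-0.34, adjusted p = 0.10). Over both guides it was -0.40 (adjusted p = 0.03). That value lost its call with no low-count filter (0.078) and without sgC replicate 1 (0.12) or 3 (0.13), sgZ1 replicate 3 (0.053), or sgZ3 replicate 1 (0.059) or 2 (0.065). The changes of FOXO1 without the libraries that carried VIM were -0.45 over both guides, -0.20 with sgZ1 and -0.69 with sgZ3. PPARGC1A, the coactivator PGC-1alpha that works with both factors, lies on chromosome 4 from 23755041 to 23904089 and had 0 to 3 counts per library.

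**Figure D3:**
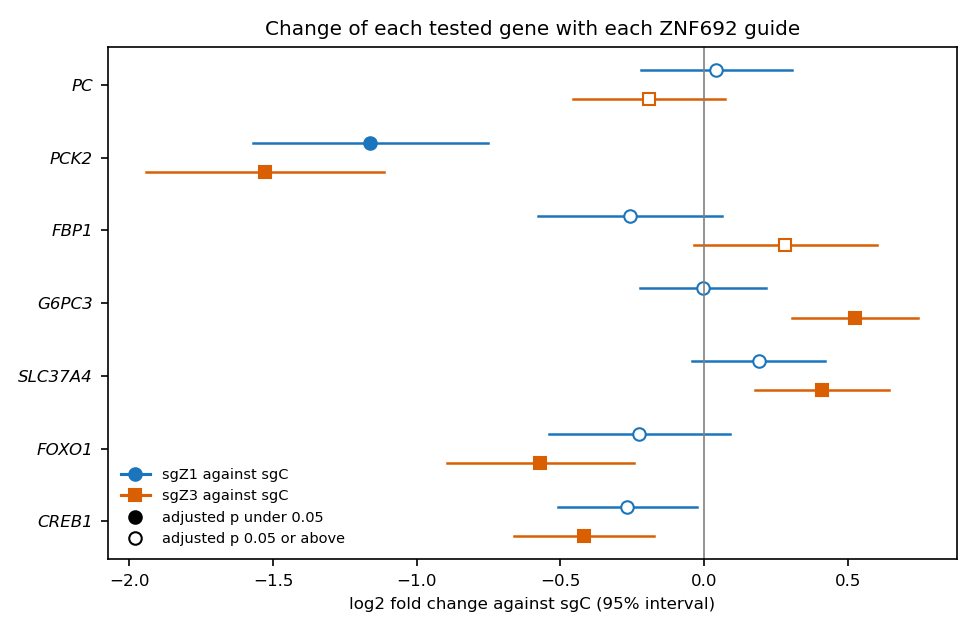
log2 fold change of the 7 tested genes against sgC, for each guide, with 95% intervals (filled points, adjusted p under 0.05). PCK2 is far from 0 with both guides, and for FBP1 and G6PC3 the sgZ3 value lies above that of sgZ1 by 0.54 and 0.53.

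Directly between the guides, 2 of the 7 tested members passed, FBP1 and G6PC3, both higher in sgZ3, beside 28.6% of all genes (12.8% higher, 15.8% lower). The guides' libraries did not overlap for 3 of the 7 members, FBP1, G6PC3 and FOXO1, beside 35.5% of all genes. Without the libraries that carried VIM 6 passed, beside 53.2% of all genes in that setting: FBP1, G6PC3 and SLC37A4 (0.34) were higher in sgZ3, and PCK2 (-0.55), FOXO1 (-0.49) and PC (-0.44) were lower. CREB1 did not pass in either form (-0.15, adjusted p = 0.33, and -0.17, adjusted p = 0.21).

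Among the genes whose level followed PCK2 most closely over the 9 libraries, of 9243 with a mean of at least 10 CPM, were UBE3B, a ubiquitin ligase (Pearson r of log2 CPM 0.98), FAM149B1 (0.98), CARS1, the cytosolic cysteinyl-tRNA synthetase (0.97), and SLC43A1, an amino-acid transporter (0.97, with the same rank order as PCK2). These 9 points include the difference between guides, so the values describe a shared pattern only. CARS1 went from a mean of 190.4 CPM under sgC to 122 under sgZ1 and 86.8 under sgZ3 (log2 fold change over both guides -0.89, SE 0.110, adjusted p = 0.00026). UBE3B moved far less (-0.18, adjusted p = 0.065) and did not pass. For CREB1 the closest were GIN1, SHOC2 and CPEB4 (each 0.99), CGGBP1 and AZIN1 (both 0.98), all of which fell over both guides, by 0.29 (AZIN1) to 0.55 (CGGBP1) on the log2 scale. Among the members, PCK2 had r = 0.79 with FOXO1, 0.69 with CREB1, -0.77 with SLC37A4 and -0.16 with FBP1.

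The other genes of glucose production and its control were grouped in 10 lists, and their calls are read against the 18.6% of all genes called higher and 14.6% called lower over both guides. Of 10 tested enzymes of the reversible steps shared with glycolysis, 4 rose and 0 fell over both guides (median log2 fold change 0.073): ENO1, an enolase (0.45), PGAM1, phosphoglycerate mutase (0.51), TPI1, triosephosphate isomerase (0.29), and ALDOA. The ALDOA call over both guides is that of sgZ1 (4.72), with 0.24 for sgZ3 (adjusted p = 0.86), and it is uncertain, because the table holds ALDOA at 0 to 2.33 CPM and a second gene on the same strand shares 1657 of its 3916 exon bases. TPI1 lost its call without sgC replicate 1 (0.081) or 3 (0.088), and 2 of the 10 rose without sgC replicate 1. ALDOC, a further aldolase named after its values were seen, went opposite ways, from 13.4, 11.2 and 8.35 CPM under sgC to 32.3, 27.6 and 34.2 under sgZ1 and 3.79, 5.04 and 4.11 under sgZ3. The groups of ALDOC did not overlap (log2 difference between guides -2.86). Per guide, 4 of the 10 enzymes rose and 0 fell with sgZ1, and 3 rose and 2 fell with sgZ3. Those that fell with sgZ3 were ALDOC and ENO2, a further enolase (-0.59, edgeR adjusted p = 0.0065). ENO2 too was named after its values were seen.

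Of 9 tested genes of the opposing glycolytic steps, 3 rose and 1 fell over both guides (median 0.19). PFKFB2, which makes the fructose-2,6-bisphosphate that inhibits FBP1, fell by 0.49, from 34.9, 30.6 and 36.9 CPM under sgC to 24.5, 24.4 and 23.3 under sgZ1 and 25.6, 21.9 and 26.6 under sgZ3. The related PFKFB3 (0.29) and the phosphofructokinases PFKP (0.29) and PFKM (0.24) rose, PFKP by 0.47 with sgZ1 while its 0.12 with sgZ3 did not pass (adjusted p = 0.31). With library totals, and without sgC replicate 1 or 3, 0 of the 9 rose and 1 fell. PFKM also lost its call without sgC replicate 2 (0.087), sgZ3 replicate 1 (0.052) or sgZ3 replicate 2 (0.058), with upper-quartile scaling and with no low-count filter.

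Of 30 tested genes that supply or divert pyruvate, oxaloacetate and glycerol, 11 rose and 6 fell over both guides (median 0.22), 6 and 5 with sgZ1 and 13 and 4 with sgZ3. Over both guides the counts were 2 and 3 without sgC replicate 1, 7 higher without sgC replicate 2, 4 and 4 without sgC replicate 3, and 6 and 8 with library totals. The 13 higher calls with sgZ3 were 5 without sgC replicate 1 or 3, 8 without sgC replicate 2, 6 or 7 without sgZ3 replicate 1 or 2, 7 with upper-quartile scaling and 4 with library totals. PDK1 (-0.66) and PDK4 (-0.86), kinases that shut pyruvate dehydrogenase and so spare pyruvate for PC, fell. The related PDK2 and PDK3, named after their values were seen, went opposite ways. PDK3 fell (-0.27, edgeR adjusted p = 0.02) and PDK2 rose (0.39, 0.019), by 0.77 with sgZ1. Mean PDK2 levels were 9.99 CPM in sgC, 17.0 in sgZ1 and 10.1 in sgZ3. PDK2 and PDK3 each lost the call over both guides without sgC replicate 1, 2 or 3. PDK4 went from 9.10, 8.19 and 8.52 CPM under sgC to 6.003, 5.44 and 5.17 under sgZ1 and 3.38, 3.79 and 4.97 under sgZ3, with no overlap. PDP1, the phosphatase that reopens the enzyme, stood at 155 to 156 CPM in sgC, 393 to 450 in sgZ1 and 130 to 140 in sgZ3. Its rise over both guides (0.60) was that of sgZ1 (1.41), and with sgZ3 it was -0.20 (adjusted p = 0.07). SLC16A3, a lactate exporter, rose (0.53).

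Of 8 tested genes around glucose-6-phosphate and glucose transport, SLC2A1, a glucose transporter (0.21), rose and H6PD, the enzyme that uses glucose-6-phosphate inside the endoplasmic reticulum, fell (-0.54). The SLC2A1 value averages a rise with sgZ3 (0.40, adjusted p = 0.0033) and 0.016 with sgZ1 (adjusted p = 0.91), and the guides differed by 0.38 (adjusted p = 0.0039). Over both guides SLC2A1 lost its call in 10 other settings, with adjusted p of up to 0.20 (without sgC replicate 3), and 0 of the 8 rose without sgC replicate 1, 2 or 3, sgZ1 replicate 2 or 3 or sgZ3 replicate 1 or 2. H6PD stood at 36.7, 31.9 and 37.6 CPM in sgC, 28.9, 19.5 and 28.9 in sgZ1 and 20.4, 23.3 and 25.1 in sgZ3, with no overlap with sgC. The liver glucose-6-phosphatase G6PC1 had 1 count in all 9 libraries together, and G6PC2 and the liver glucose transporter SLC2A2 had 0 (all 3 were named after their counts were seen).

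**Figure D4:**
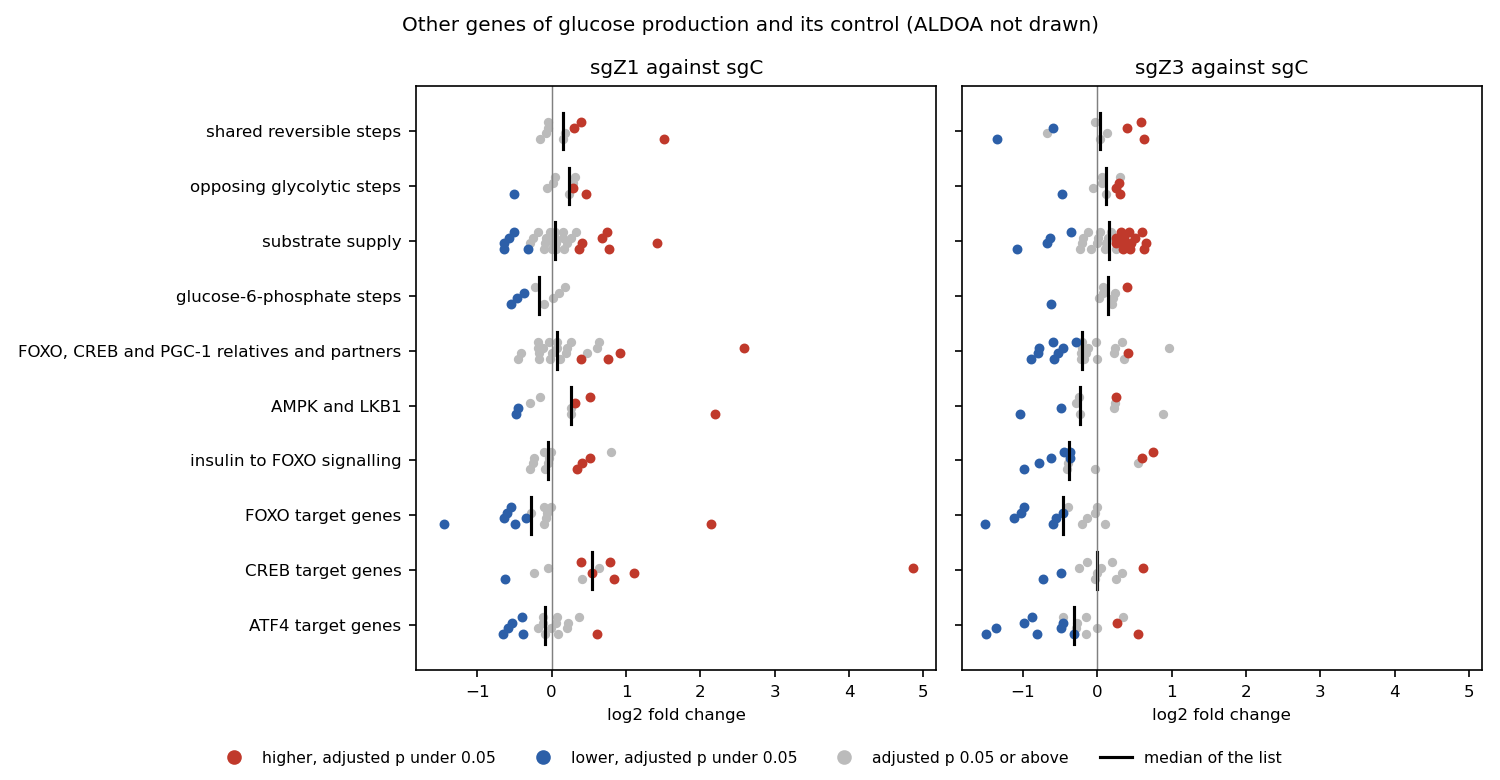
log2 fold change of the tested genes of each list with sgZ1 (left) and sgZ3 (right) against sgC, with red for higher and blue for lower calls and a bar at the list median. ALDOA was left out of the points and of the median bar of its list. FOXO target genes lie mostly below 0 in both panels, and CREB target genes have 6 higher calls with sgZ1 and 1 with sgZ3.

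Of 23 tested relatives and partners of FOXO1, CREB1 and PPARGC1A, 4 rose and 4 fell over both guides, 4 and 0 with sgZ1 and 1 and 8 with sgZ3. The sgZ3 counts were 0 and 3 without sgC replicate 1, 0 and 4 without sgC replicate 3, 0 and 3 without sgZ3 replicate 1, 0 and 4 without sgZ3 replicate 2, and 4 lower without sgC replicate 2. Over both guides they were 1 and 0 without sgC replicate 1 or 2, 2 and 1 without sgC replicate 3 and 2 and 0 without sgZ3 replicate 1, with 2 higher without any single sgZ1 library and 1 lower without sgZ3 replicate 2. PPRC1, a PGC-1 relative, rose over both guides (0.57) and with sgZ1 (0.91, adjusted p = 0.00099). With sgZ3 it was 0.23 (adjusted p = 0.25), and the guides differed by -0.68 (adjusted p = 0.0056). CREM, a CREB relative, rose (0.37), and HNF4A (-0.53), a liver and gut nuclear receptor, and EP300 (-0.49), a coactivator of CREB, fell, EP300 by 0.80 with sgZ3 while its -0.18 with sgZ1 did not pass (adjusted p = 0.51). CREM, HNF4A and EP300 each lost the call without sgC replicate 1 (0.077, 0.065 and 0.077), 2 (0.078, 0.061 and 0.06) or 3 (0.10, 0.18 and 0.17), and without sgZ3 replicate 1 (0.052, 0.064 and 0.067) or 2 (0.053, 0.065 and 0.07). FOXO3, the closest relative of FOXO1, was named after its values were seen: it stood at 53.8, 51.3 and 51.1 CPM in sgC, 56.3, 40.2 and 56.1 in sgZ1 and 23.6, 28.99 and 38.2 in sgZ3. Its highest sgZ3 library was below all others, and it fell with sgZ3 (-0.78, adjusted p = 0.0049) and differed between the guides (-0.74, adjusted p = 0.0063).

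Of 9 tested genes of AMPK and its activator LKB1, 3 rose and 3 fell over both guides, 3 and 2 with sgZ1 and 1 and 2 with sgZ3. PRKAA1, the catalytic subunit alpha 1, fell by 0.47, with 134 to 141 CPM under sgC, 83.4 to 108 under sgZ1 and 87.7 to 109.6 under sgZ3. PRKAB2 (-0.38), CAB39 (-0.27) and CAMKK2 (0.28) passed too but lost the call without sgC replicate 1 (0.10, 0.13 and 0.11), and PRKAB2 also without sgC replicate 3 (0.052), CAMKK2 without sgC replicate 2 (0.082), and CAB39 without sgC replicate 2 (0.093) or 3 (0.14), sgZ1 replicate 3 (0.074), or sgZ3 replicate 1 (0.09) or 2 (0.093). CAMKK2 lost it with library totals too (0.099). The list had 0 higher and 1 lower without sgC replicate 1, 0 higher without sgC replicate 2, 1 and 1 without sgC replicate 3, and 1 higher without sgZ1 replicate 2 or sgZ3 replicate 2. PRKAA2, the catalytic subunit alpha 2, was named after its values were seen and went opposite ways at a low level. It stood at 0.778 to 1.18 CPM in sgC, 3.54 to 5.3 in sgZ1 and 0.203 to 0.608 in sgZ3. Its log2 fold change was 2.20 with sgZ1 (edgeR adjusted p = 0.00011) and -1.04 with sgZ3 (adjusted p = 0.041). The sgZ3 call was lost in 6 of 17 other settings, and PRKAA2 was not called over both guides. Of 12 tested genes from the insulin receptor to FOXO, 2 rose and 5 fell over both guides, 3 and 0 with sgZ1 and 2 and 6 with sgZ3. AKT1 (0.63) and AKT2 (0.48), the kinases that phosphorylate FOXO1, rose. AKT1 stood at 114, 121 and 121 CPM in sgC, 152, 178 and 180 in sgZ1 and 201, 208 and 188 in sgZ3, with no overlap. PIK3CA (-0.43), a catalytic subunit of PI3 kinase, fell and lost the call without sgC replicate 1 (0.069) or 3 (0.12). The list had 0 lower calls without sgC replicate 1, 1 without sgC replicate 3, 2 without sgZ3 replicate 2 and 3 without sgC replicate 2, sgZ1 replicate 3 or sgZ3 replicate 1. With sgZ3 it had 3 without sgC replicate 1 or sgZ3 replicate 2.

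Of 13 tested FOXO target genes, 1 rose and 6 fell over both guides (median -0.31), 1 and 6 with sgZ1, and 0 and 7 with sgZ3 (median -0.46). The numbers of lower calls stayed within 1.5 times of these in each alternative setting run for the lists. CCNG2, a cyclin of resting cells, stood at 100, 91.8 and 89.5 CPM in sgC, 65.2, 59.98 and 54.5 in sgZ1 and 42.3, 45.1 and 42.0 in sgZ3 (log2 fold change over both guides -0.88). The 3 groups of CCNG2 did not overlap. SESN3, a stress-induced inhibitor of mTORC1, stood at 52.8, 50.4 and 52.4 CPM in sgC, 42.7, 35.0 and 32.5 in sgZ1 and 22.5, 24.8 and 29.2 in sgZ3 (-0.76). PIK3IP1, an inhibitor of PI3 kinase, fell by 1.47 from a level of only 1.28 to 1.498 CPM. TRIB1, a pseudokinase, rose over both guides (1.05) through sgZ1, where it stood at 200 to 240 CPM against 49.7 to 52.5 in sgC and 46.8 to 53.3 in sgZ3. These targets are also driven by other factors, and the list was not tested as a set.

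Of 11 tested CREB target genes, 3 rose and 1 fell over both guides (median 0.29), 6 and 1 with sgZ1 and 1 and 2 with sgZ3. DUSP1, a MAP kinase phosphatase, rose (0.70). PDE4B and PDE4D are phosphodiesterases that break down cyclic AMP. PDE4B was at 29.4 to 31.9 CPM in sgZ1 and at 0.876 to 1.83 in the 6 other libraries, while PDE4D fell (-0.55). The sgZ1 count was 3 higher without sgC replicate 1, sgC replicate 2 or sgZ1 replicate 3. Of 17 tested ATF4 genes, of which PCK2 is a known fellow target, 2 rose and 6 fell over both guides (median -0.19), 1 and 5 with sgZ1 and 2 and 8 with sgZ3. The sgZ1 count was 3 lower without sgC replicate 1 or 3 or sgZ1 replicate 2 or 3, the sgZ3 count was 5 lower without sgC replicate 1, and the mRNA of ATF4 itself did not pass (-0.03, adjusted p = 0.76). The genes of this list with the smallest adjusted p over both guides all fell: PSAT1 (-0.79), VLDLR (-1.08), SLC7A11 (-0.94) and PSPH, of serine synthesis (-0.60). ATF5, an ATF4-related factor named after its values were seen, rose (0.58). ASNS, listed among the ATF4 genes but not tested, had 0 counts in all 9 libraries and was also named after its values were seen. Whether that 0 comes from the cells or from the counting was not tested.

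Without the libraries that carried VIM, 23.1% of all genes were called higher and 26.6% lower over both guides, and the numbers for the lists were 4 and 1 for the shared reversible steps, 4 and 1 for the opposing glycolytic steps, 14 and 7 for substrate supply and 1 and 2 around glucose-6-phosphate. They were 5 and 8 for the relatives of the regulators, 1 and 4 for AMPK and LKB1, 2 and 6 from the insulin receptor to FOXO, 1 and 8 for FOXO targets, 4 and 1 for CREB targets and 2 and 8 for ATF4 genes.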

How the data were processed

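The authors deposited raw counts, whole numbers for each gene and library. The submitters' processing notes list the builds hg38 and GRCh38 and the tools STAR 2.5.2b, HTSeq, DESeq2 and SAMtools 1.9. The sources used here do not give their roles, the annotation release or whether counting used strand. If it did not, reads of overlapping genes on opposite strands cannot be told apart. The other deposited table, estimated counts of ribosomal RNA entries, was not used here. Groups came from the sample titles. For 1 sgC sample the description points to the ribosomal table, but title and molecule say poly(A), which was followed.

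The tests used edgeR 4.0.16 with limma 3.58.1 (R 4.3.3): filterByExpr, TMM scaling and 1 robust quasi-likelihood model of the 9 libraries by guide. Of 47021 genes 14732 were tested, adjusted together by Benjamini-Hochberg, and an adjusted p below 0.05 was a call. The common biological coefficient of variation was 12.7%. Positions and exon lengths are from GENCODE 29, which held 95.34% of the table's genes. The same steps were tested on simulated counts. The 10 members and the gene lists were chosen with earlier results of these data known. Named genes are the members, ZNF692, up to 4 genes per list with the smallest adjusted p over both guides, the 5 genes most correlated with PCK2 and with CREB1, the libraries' marker genes, and those said in the text to be chosen after their values were seen. Results for 2 such genes are left out here. Alternatives were DESeq2 1.42.0, other scalings and filters, fits of the compared groups only, a replicate block, each library left out and, chosen after seeing the data, the list counts under these settings.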

Additional observations from a re-analysis of the deposited data

Results flagged for a closer look

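FBP1 and G6PC3 are singled out because the test of the difference between the guides passed for them. FBP1 was higher in sgZ3 than in sgZ1 by 0.54 on the log2 scale (edgeR adjusted p = 0.017), with 52.3, 54.0 and 37.4 CPM in sgZ3 against 27.2, 36.3 and 35.2 in sgZ1. All sgZ3 libraries were above all sgZ1 libraries. G6PC3 was higher by 0.53 (adjusted p = 0.0022), with 110.6, 111.3 and 98.8 CPM against 68.0, 71.6 and 82.4, also without overlap. Of all genes tested, 17.2% were higher in sgZ3 without overlap. The labels give no batch, so guide, clone and culture cannot be told apart.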

How the results depend on the processing

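No called member changed sign in any setting run. The 5 members called over both guides became 3 both with upper-quartile scaling and with library totals, 1 at a false discovery rate of 0.01 and 1 to 5 with 1 library left out. For sgZ1 it was 1 in each fit with 1 library left out, and 3 without both libraries that carried VIM. For sgZ3 (5) it was 2 at 0.01 and 2 to 6 with 1 library left out. Between guides (2) it was 6 without the VIM libraries, 1 at 0.01 and 1 to 4 with 1 library left out. The genes called among all tested, 4885 over both guides, 3807 with sgZ1, 5355 with sgZ3 and 4209 between guides, were 2278, 2005, 2609 and 2254 at 0.01, 7409, 5894, 8246 and 7932 without the VIM libraries, and 2201 to 6337, 2129 to 4855, 3080 to 6796 and 2501 to 6153 with 1 library left out. The low counts over both guides came without sgC replicate 1 (2201) or 3 (2389). At a mean of at least 10 CPM they were 2527 for sgZ1 and 2676 between guides, with fewer genes tested. The cause of the other shifts was not tested. Of the calls over both guides 56.0% were higher, and 45.9% with upper-quartile factors and 36.6% with library totals; for sgZ3 these were 52.9%, 41.5% and 29.6%, and between guides 44.7% and 27.0% with library totals. Library totals moved the median of all genes with sgZ3 from -0.018 to -0.17 and between guides from -0.012 to -0.12.

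With the replicate number as a replicate block the members called were 5, 1, 5 and 2 and the genes called 5488, 4202, 5974 and 5005. Libraries of different guides were correlated over all tested genes, after each gene's mean within its guide was subtracted from log2 CPM. These correlations thus cover only departures from the group means. In this form same-numbered libraries correlated at -0.12 to 0.25, above 0.1 in 3 of 9 pairs. The values were 0.0032, 0.25 and 0.14 for sgC with sgZ1, and 0.040, 0.091 and 0.17 for sgC with sgZ3. Between sgZ1 and sgZ3 they were -0.036, -0.0040 and -0.12. In the same form, libraries of different guides with unlike numbers correlated at -0.26 to 0.20. Whether the numbers mark paired libraries was not settled by these values. PCK1, FBP2 and PPARGC1A did not pass the low-count filter, and in the fit without it none of them was called over both guides (adjusted p of 0.68 or more).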
